A study of Homo sapiens with 6 samples.

Results

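Transcripts of glycolysis and of the response to low oxygen were followed in human embryonic stem cells depleted of DDX18, a nucleolar RNA helicase. The genes are the 35 named for glucose and lactate transport, glycolytic enzymes and targets of hypoxia-inducible factor (HIF), matched by symbol to the rows of the deposited expression table. All 35 had a row among the 17929 genes of the table, and all 35 passed the filter on low values. The knockdown libraries were HES2 cells with the hairpin shDDX18#3, HES2 cells with shDDX18#1, H9 cells with shDDX18#3 and H9 cells with shDDX18#1. Their controls were HES2 and H9 cells with shLuc, a hairpin named for luciferase. HES2 and H9 are established lines of human embryonic stem cells. All 6 groups grew on irradiated mouse embryonic fibroblast feeders in medium with basic fibroblast growth factor, were infected with hairpin virus and were collected on day 4. Each group is 1 library of RNA from lysed cells, made with a kit that keeps no strand, and separation of human cells from feeders is not mentioned. The 6 samples differ in line or hairpin. Whether those of a line came from separate cultures is not stated, so part of their spread may be technical. Each line has 1 library per hairpin, so a p-value here reflects how far the lines or the hairpins disagree in their changes. The fit that pools both shDDX18 hairpins has 3 residual degrees of freedom, and the fit by hairpin has 2.

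Glycolysis splits glucose into pyruvate in the cytosol, and lactate dehydrogenase turns pyruvate into lactate, which leaves the cell through monocarboxylate transporters. Pyruvate dehydrogenase kinases keep pyruvate out of the mitochondrial cycle, and the PFKFB enzymes set the activator of phosphofructokinase. HIF is a transcription factor whose alpha subunit is hydroxylated by the EGLN enzymes and then destroyed while oxygen is present. When oxygen is short it accumulates, binds DNA at the core ACGTG and raises many glycolytic genes together with VEGFA, ADM, NDRG1 and others. Primed human embryonic stem cells are known for a high use of glycolysis.

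The stretch around the transcription start is shown for 5 genes that differed between knockdown and shLuc libraries and hold at least 2 copies of the HIF core there. Each is a 300-base window, 250 bases before the start and 50 after, from RefSeq on GRCh38.p14, written on the gene's strand. A fall was called for PDK1 (chr2:172555840-172556139, plus strand), LDHA (chr11:18394313-18394612, plus strand), ALDOC (chr17:28576846-28577145, minus strand) and PGK1 (chrX:78103998-78104297, plus strand). A rise was called for PFKFB3 (chr10:6202682-6202981, plus strand). Capitals mark ACGTG on either strand, which reads CACGT where the core lies on the other strand. The E-box CACGTG, a site of MYC and its relatives, holds the core on both strands and so counts as 2 copies.
PDK1: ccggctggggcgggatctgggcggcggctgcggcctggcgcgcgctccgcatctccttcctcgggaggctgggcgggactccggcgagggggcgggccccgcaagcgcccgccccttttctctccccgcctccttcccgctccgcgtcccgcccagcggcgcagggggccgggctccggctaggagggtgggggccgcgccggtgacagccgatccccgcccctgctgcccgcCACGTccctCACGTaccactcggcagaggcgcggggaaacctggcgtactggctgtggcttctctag
LDHA: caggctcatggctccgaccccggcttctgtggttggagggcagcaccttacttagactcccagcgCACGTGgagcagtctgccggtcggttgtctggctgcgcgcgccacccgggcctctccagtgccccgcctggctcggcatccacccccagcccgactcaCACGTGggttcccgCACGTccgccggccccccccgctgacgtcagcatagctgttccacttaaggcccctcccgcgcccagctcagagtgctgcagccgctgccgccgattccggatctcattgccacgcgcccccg
ALDOC: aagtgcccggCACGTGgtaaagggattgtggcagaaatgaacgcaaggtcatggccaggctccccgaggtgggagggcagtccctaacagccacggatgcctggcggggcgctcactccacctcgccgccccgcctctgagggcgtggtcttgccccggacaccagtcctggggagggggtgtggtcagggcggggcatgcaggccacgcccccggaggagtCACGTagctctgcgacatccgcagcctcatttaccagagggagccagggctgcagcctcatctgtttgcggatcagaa
PGK1: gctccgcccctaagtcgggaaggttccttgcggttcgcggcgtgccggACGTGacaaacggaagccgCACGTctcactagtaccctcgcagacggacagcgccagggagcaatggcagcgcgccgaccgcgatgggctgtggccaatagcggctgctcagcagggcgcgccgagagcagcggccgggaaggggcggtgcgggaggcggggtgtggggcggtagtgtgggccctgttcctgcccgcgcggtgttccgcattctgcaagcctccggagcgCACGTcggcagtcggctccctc
PFKFB3: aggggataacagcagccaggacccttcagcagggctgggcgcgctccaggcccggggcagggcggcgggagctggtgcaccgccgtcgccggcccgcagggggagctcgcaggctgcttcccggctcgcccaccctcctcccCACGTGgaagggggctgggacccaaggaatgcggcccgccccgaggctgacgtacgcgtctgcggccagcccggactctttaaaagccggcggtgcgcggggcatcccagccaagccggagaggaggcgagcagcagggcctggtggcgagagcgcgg
In PDK1 the copies begin at -17 and -8, counted back from the base before the start. In LDHA an E-box begins at -185, another at -87 and a core at -73. PDK1, LDHA and PFKFB3 each have a second RefSeq start with no copy in its window. ALDOC has an E-box at -240 and a core at -28. PFKFB3 has its copies in 1 E-box at -108.

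Windows were matched for 31 of the 35 genes, 58 windows in all, and SLC2A3, SLC16A1, VEGFA and NDRG1 had no entry. ACGTG on either strand was present in 23 of the 58 windows (39.66%), and in 7518 of all 35116 windows of the same length (21.41%). The E-box was present in 13.79% of the 58 windows and in 7.256% of all windows. The core outside an E-box was present in 31.03% and 15.47%. By call, described further on, ACGTG was present in windows of 7 of 9 genes that fell, 1 of 3 that rose and 11 of 19 that did neither. Counted by gene over all windows, it was present for 6790 of 27305 genes. Genes differ in their number of windows, up to 7 for HK1 and PFKM, and more windows give more chances of a match. These are matches of letters in a short window, given as a description without a test.

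The libraries held 2668179 to 4271741 reads as recovered from the table, 1.45% to 1.74% of them from the 35 genes. Levels are given as CPM, read counts scaled to an effective library size of 1e+06 reads. A read is worth 0.224 to 0.408 CPM, and the limit that a count of 0 allows, 3 reads, is 0.671 to 1.23 CPM, for counting error only. DDX18 itself stood at 37.6% of the line's own shLuc level in HES2 shDDX18#3, 24.5% in HES2 shDDX18#1, 31.0% in H9 shDDX18#3 and 12.6% in H9 shDDX18#1. All 13 human embryonic stem cell markers had a row, with summed levels of 2514 to 3910 CPM in the knockdown libraries and 6602 to 7279 CPM in the shLuc libraries. Marker calls are from the 4 knockdown libraries against the 2 shLuc libraries, at a limma adjusted p under 0.05. Of all 17768 genes tested 9.60% rose and 6.26% fell. The stem cell markers fell in 10 of 13 cases, and 3 passed in neither direction. Fibroblast and feeder markers rose in 16 of 25 cases, with 0 falls. Their sum was 21907 CPM in HES2 shDDX18#3, 35849 in HES2 shDDX18#1, 38593 in H9 shDDX18#3 and 104944 in H9 shDDX18#1, against 3060 in HES2 shLuc and 7612 in H9 shLuc. It took 9.63% of reads in H9 shDDX18#1, the highest of the 6 libraries, and COL1A1 and COL3A1 were above 0 in all 6. Whether these reads came from feeders or from human cells was not tested. Of the 25 markers 2 were at 0 in HES2 shDDX18#3 and 2 in HES2 shLuc, and 0 in the other libraries. Of 14 endoderm markers 9 rose and 0 fell, and of 8 measured trophoblast and amnion markers, of 13 listed, 4 rose and 0 fell. Of 6 measured neural ectoderm markers, of 12 listed, 3 rose and 0 fell, and of 11 mesoderm markers 2 rose and 3 fell. Summed endoderm markers were at 778 to 1776 CPM in knockdown and 344 to 494 CPM in shLuc libraries, and trophoblast and amnion markers at 345 to 1266 and 48.1 to 124 CPM.

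In the 4 knockdown libraries against the 2 shLuc libraries, transcripts of several glycolytic enzymes, both lactate dehydrogenases and both pyruvate dehydrogenase kinases were lower, while the HIF targets NDRG1, ADM and VEGFA, the glucose transporter SLC2A3, the regulator PFKFB3 and the collagen hydroxylase P4HA2 were higher. Of 35 genes 6 rose and 10 fell at a limma adjusted p under 0.05, and 19 did neither. Those are 17.1% and 28.6% of the genes, where 9.60% of the 17768 genes tested rose and 6.26% fell. The median log2 fold change was -0.15 over the 35 genes and -0.02 over all genes tested, and the median of its size was 0.63 against 0.40. All 4 knockdown libraries lay below both shLuc libraries for 13 genes, above both for 6 genes, and overlapped them for 16. Over all genes 20.9% lay below and 19.8% above. Fold changes here and below are on the log2(CPM + 1) scale, from a limma-trend fit with cell line as a block. In these bulk samples fewer cells of a type and less RNA per cell cannot be told apart. Whether the shift in feeder and lineage markers has a part in these changes was not tested.

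By role the calls ran in different directions. Of 4 transporters 1 rose and 1 fell, of 15 glycolytic enzymes 0 rose and 5 fell, and both lactate dehydrogenases fell. Of 4 flux regulators 1 rose and 2 fell, of 4 oxygen sensors and collagen hydroxylases 1 rose and 0 fell, and of the other 6 HIF targets 3 rose and 0 fell. The fitted change was below 0 for 13 of the 15 enzymes and above 0 for all 10 genes of the last pair of roles, most of which did not pass the test.

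The number of calls rests on single libraries. Leaving out HES2 shDDX18#3 left 4 rises and 5 falls, and leaving out HES2 shDDX18#1 left 2 rises and 4 falls. Without H9 shDDX18#3 there were 8 rises and 10 falls. Without H9 shDDX18#1, the library with the highest sum of fibroblast and feeder markers, there were 6 rises and 9 falls. Without HES2 shLuc 1 rise and 0 falls passed, and without H9 shLuc 1 rise and 4 falls, since the effect is then estimated from the other line alone. Of all genes tested, 6.09% rose and 2.79% fell without HES2 shDDX18#3, 4.41% and 1.39% without HES2 shDDX18#1, 11.4% and 9.19% without H9 shDDX18#3, and 9.27% and 6.32% without H9 shDDX18#1. Without HES2 shLuc these shares were 1.06% and 0.0402%, and without H9 shLuc 2.51% and 0.263%. NDRG1 passed in all 18 alternative settings, and all 16 called genes kept their direction in all 18.

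**Figure D1:**
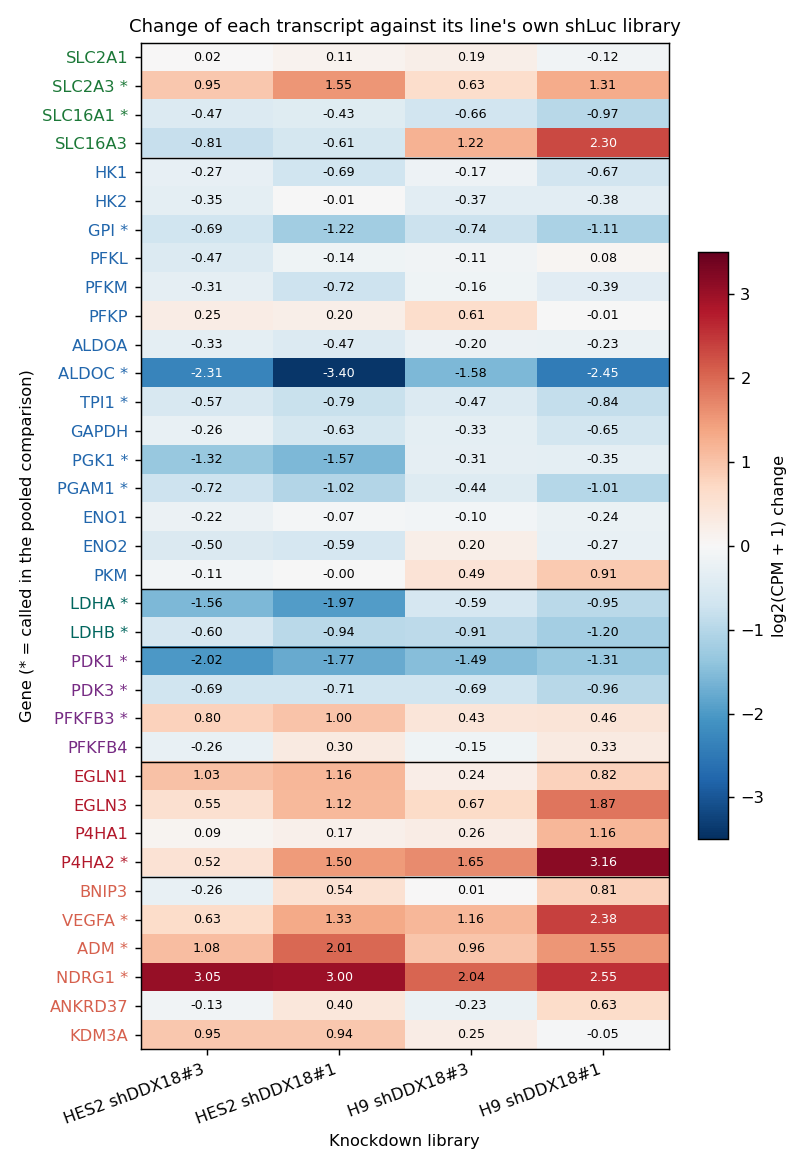
Log2(CPM + 1) change of each of the 35 transcripts in each knockdown library against the shLuc library of the same line. Rows are grouped by role (gene names coloured by role), columns are libraries, red is higher and blue lower than shLuc, and * marks the 16 genes called in the pooled comparison; P4HA2 has its highest change, 3.16, in H9 shDDX18#1, and ALDOC its lowest, -3.40, in HES2 shDDX18#1.

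Glucose enters through SLC2A1 and SLC2A3, the transporters GLUT1 and GLUT3. SLC2A3 had 3862 CPM in HES2 shDDX18#3, 5842 in HES2 shDDX18#1, 1968 in H9 shDDX18#3 and 3157 in H9 shDDX18#1, against 2001 in HES2 shLuc and 1273 in H9 shLuc. It was higher in all 4 knockdown libraries than in the same line's shLuc, but H9 shDDX18#3 did not clear HES2 shLuc, so the groups overlapped. SLC2A3 rose by 1.11 on the log2 scale (SE 0.27, limma adjusted p = 0.0319). Per kilobase of exon it was also the most abundant of the 4 transporters, at 602 CPM per kb on average in knockdown and 266 in shLuc libraries. SLC2A1 stayed between 440.8 and 609 CPM in the knockdown libraries and between 435 and 533 in the shLuc libraries, a fold change of 0.05 (SE 0.15, limma adjusted p = 0.842). SLC2A3 thus took 71.2% to 90.5% of the summed level of this pair per kilobase in knockdown libraries and 64.7% to 77.9% in shLuc libraries, ranges that overlap.

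Lactate leaves mainly through SLC16A1 (MCT1) and, in glycolytic cells, SLC16A3 (MCT4). SLC16A1 had 384 CPM in HES2 shDDX18#3, 395 in HES2 shDDX18#1, 352 in H9 shDDX18#3 and 283 in H9 shDDX18#1, against 534 in HES2 shLuc and 556 in H9 shLuc. All 4 knockdown libraries were below both shLuc libraries, and it fell by 0.63 on the log2 scale (SE 0.16, limma adjusted p = 0.0344). SLC16A3 was a low transcript and split by line. It had 23.7 CPM in HES2 shDDX18#3, 27.4 in HES2 shDDX18#1, 20.7 in H9 shDDX18#3 and 44.9 in H9 shDDX18#1, against 42.3 in HES2 shLuc and 8.31 in H9 shLuc. The knockdown libraries were below their own shLuc in HES2 and above it in H9, whose shLuc value rests on 30 reads. The pooled change was 0.53 (SE 0.52, limma adjusted p = 0.517), with -0.71 without H9 shLuc (adjusted p = 0.426) and 1.76 without HES2 shLuc (adjusted p = 0.109).

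Glucose is phosphorylated on entry by the hexokinases HK1 and HK2. HK1 had 151 CPM in HES2 shDDX18#3, 113 in HES2 shDDX18#1, 281 in H9 shDDX18#3 and 199 in H9 shDDX18#1, against 183 in HES2 shLuc and 317 in H9 shLuc. Each knockdown library was below its own shLuc, but the lines differed more, and the pooled change was -0.45 (SE 0.19, limma adjusted p = 0.135). HK1 fell by 0.68 on the log2 scale (SE 0.13, limma adjusted p = 0.00613) with shDDX18#1. HK2 ranged from 91.1 to 118 CPM in knockdown libraries and stood at 118 and 119 CPM in the shLuc libraries, with a pooled change of -0.28 (SE 0.15, limma adjusted p = 0.239).

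GPI, the isomerase that makes fructose phosphate, had 185 CPM in HES2 shDDX18#3, 129 in HES2 shDDX18#1, 153 in H9 shDDX18#3 and 118 in H9 shDDX18#1, against 301 in HES2 shLuc and 256 in H9 shLuc. The groups did not overlap, and the lower value of each line was with shDDX18#1. GPI fell by 0.94 on the log2 scale (SE 0.19, limma adjusted p = 0.0168).

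Phosphofructokinase commits the sugar to glycolysis and has a muscle (PFKM), a liver (PFKL) and a platelet (PFKP) form. PFKM had 67.4 CPM in HES2 shDDX18#3, 50.5 in HES2 shDDX18#1, 65.5 in H9 shDDX18#3 and 55.5 in H9 shDDX18#1, against 84.1 in HES2 shLuc and 73.1 in H9 shLuc. All 4 knockdown values lay below the shLuc values, with a pooled change of -0.40 (SE 0.18, limma adjusted p = 0.156). PFKM fell by 0.56 on the log2 scale (SE 0.16, limma adjusted p = 0.0323) with shDDX18#1. PFKL and PFKP did not pass, at -0.16 and 0.26, with limma adjusted p = 0.515 and 0.35. The share of PFKM in the summed level of the 3 forms per kilobase was 12.0% to 15.9% in knockdown and 18.2% to 19.4% in shLuc libraries, and that of PFKP 54.6% to 65.5% and 50.8% to 53.2%. Neither pair of ranges overlapped.

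Aldolase cuts the sugar into triose phosphates, and ALDOC is its brain form. ALDOC had 17.5 CPM in HES2 shDDX18#3, 7.72 in HES2 shDDX18#1, 17.2 in H9 shDDX18#3 and 8.98 in H9 shDDX18#1, against 91.0 in HES2 shLuc and 53.4 in H9 shLuc. The shLuc libraries were far above all 4 knockdown libraries. ALDOC fell by 2.43 on the log2 scale (SE 0.38, limma adjusted p = 0.00756), the largest fall of the 35 genes. The common form ALDOA kept a higher level, 652 to 833 CPM in knockdown and 902 and 958 in shLuc libraries, with a change of -0.31 (SE 0.15, limma adjusted p = 0.192) that did not pass. ALDOC made up 1.45% to 3.17% of the aldolase level per kilobase in knockdown libraries and 6.94% to 11.9% in shLuc libraries. The transcript AC005726.4, which shares 10.1% of the exon bases of ALDOC, stood at 2.25 to 5.19 CPM in knockdown and 12.2 to 24.4 CPM in shLuc libraries. Without strand, reads in the shared bases cannot be told apart.

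TPI1, which interconverts the triose phosphates, had 451 CPM in HES2 shDDX18#3, 386 in HES2 shDDX18#1, 508 in H9 shDDX18#3 and 391 in H9 shDDX18#1, against 668 in HES2 shLuc and 702 in H9 shLuc. The groups did not overlap. TPI1 fell by 0.67 on the log2 scale (SE 0.16, limma adjusted p = 0.0319).

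GAPDH, the dehydrogenase whose step yields NADH, was the highest of the 35 genes per kilobase by the group means and in 5 of the 6 libraries, with SLC2A3 above it in HES2 shDDX18#1. It had 2936 CPM in HES2 shDDX18#3, 2279.8 in HES2 shDDX18#1, 3543 in H9 shDDX18#3 and 2849 in H9 shDDX18#1, against 3524 in HES2 shLuc and 4463 in H9 shLuc. H9 shDDX18#3 was above HES2 shLuc, so the groups overlapped, although each knockdown library was below its own shLuc. The pooled change was -0.47 (SE 0.22, limma adjusted p = 0.177), and GAPDH fell by 0.64 on the log2 scale (SE 0.16, limma adjusted p = 0.0196) with shDDX18#1. Its reads are uncertain in part, since AC006064.4 shares 14.2% of its exon bases and was counted at 1054 to 1768 CPM in knockdown and 1611 to 2181.9 CPM in shLuc libraries.

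PGK1 catalyses a step that yields ATP. It had 316 CPM in HES2 shDDX18#3, 266 in HES2 shDDX18#1, 330.3 in H9 shDDX18#3 and 321 in H9 shDDX18#1, against 789.6 in HES2 shLuc and 409 in H9 shLuc. The 4 knockdown values lay close together, and the shLuc libraries, both higher, differed from each other. PGK1 fell by 0.89 on the log2 scale (SE 0.24, limma adjusted p = 0.042). Its change was -1.44 without H9 shLuc (adjusted p = 0.0286) and -0.33 without HES2 shLuc (adjusted p = 0.407), so the size of the fall rests on HES2 shLuc.

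PGAM1, the phosphoglycerate mutase, had 179 CPM in HES2 shDDX18#3, 145 in HES2 shDDX18#1, 212 in H9 shDDX18#3 and 143 in H9 shDDX18#1, against 296 in HES2 shLuc and 288 in H9 shLuc. All knockdown values were lower than both shLuc values, and PGAM1 fell by 0.80 on the log2 scale (SE 0.19, limma adjusted p = 0.0277).

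No gene of the last steps of glycolysis passed. ENO1, the common enolase, ranged from 1988 to 2367 CPM in knockdown and from 2309.6 to 2531 CPM in shLuc libraries, with a change of -0.15 (SE 0.18, limma adjusted p = 0.59). ENO2, the neuronal enolase, was at -0.29 (SE 0.19, limma adjusted p = 0.317), with -0.55 without H9 shLuc (adjusted p = 0.3) and -0.03 without HES2 shLuc (adjusted p = 0.953). PKM, the pyruvate kinase, had 1363 CPM in HES2 shDDX18#3, 1468 in HES2 shDDX18#1, 1796 in H9 shDDX18#3 and 2403 in H9 shDDX18#1, against 1469 in HES2 shLuc and 1279 in H9 shLuc. It was above its own shLuc in both H9 knockdown libraries and at or below it in HES2, and the pooled change was 0.32 (SE 0.23, limma adjusted p = 0.36). Its change was -0.05 without H9 shLuc (adjusted p = 0.943) and 0.70 without HES2 shLuc (adjusted p = 0.235).

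LDHA favours lactate production and LDHB the reverse reaction. LDHA had 250.1 CPM in HES2 shDDX18#3, 188 in HES2 shDDX18#1, 307 in H9 shDDX18#3 and 240.1 in H9 shDDX18#1, against 739.5 in HES2 shLuc and 463 in H9 shLuc. All 4 knockdown libraries were lower than both shLuc libraries, by more in HES2. LDHA fell by 1.27 on the log2 scale (SE 0.24, limma adjusted p = 0.0157), with a change of -1.76 without H9 shLuc (adjusted p = 0.0286) and -0.77 without HES2 shLuc (adjusted p = 0.169). LDHB had 558 CPM in HES2 shDDX18#3, 438 in HES2 shDDX18#1, 504 in H9 shDDX18#3 and 413 in H9 shDDX18#1, against 844 in HES2 shLuc and 948 in H9 shLuc. These groups did not overlap either. LDHB fell by 0.91 on the log2 scale (SE 0.17, limma adjusted p = 0.0151). LDHB was the more abundant form per kilobase, at 160 against 39.7 CPM per kb for LDHA in the knockdown mean and 300.4 against 96.9 in the shLuc mean. The LDHA share was 17.1% to 22.6% in knockdown and 19.0% to 29.6% in shLuc libraries, with overlap.

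PDK1 and PDK3 phosphorylate and switch off pyruvate dehydrogenase, and PDK1 is a known HIF target. PDK1 had 41.5 CPM in HES2 shDDX18#3, 49.2 in HES2 shDDX18#1, 30.1 in H9 shDDX18#3 and 34.3 in H9 shDDX18#1, against 171 in HES2 shLuc and 86.7 in H9 shLuc. It fell to 24.3% of its own shLuc level in HES2 shDDX18#3, 28.8% in HES2 shDDX18#1, 34.8% in H9 shDDX18#3 and 39.6% in H9 shDDX18#1. PDK1 fell by 1.65 on the log2 scale (SE 0.18, limma adjusted p = 0.00262), the smallest p among the falls. PDK3 had 16.7 CPM in HES2 shDDX18#3, 16.4 in HES2 shDDX18#1, 13.0 in H9 shDDX18#3 and 10.6 in H9 shDDX18#1, against 27.5 in HES2 shLuc and 21.6 in H9 shLuc. Its groups did not overlap. PDK3 fell by 0.76 on the log2 scale (SE 0.21, limma adjusted p = 0.0422). The share of PDK1 in the pair per kilobase was 43.6% to 51.8% in knockdown and 57.2% to 67.4% in shLuc libraries, without overlap.

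PFKFB3 makes the activator of phosphofructokinase. By the group means it was the most abundant flux regulator per kilobase, with PDK1 above it in HES2 shLuc. It had 113 CPM in HES2 shDDX18#3, 129.7 in HES2 shDDX18#1, 97.9 in H9 shDDX18#3 and 99.6 in H9 shDDX18#1, against 64.2 in HES2 shLuc and 72.3 in H9 shLuc. The knockdown libraries were all above the shLuc libraries, and PFKFB3 rose by 0.67 on the log2 scale (SE 0.16, limma adjusted p = 0.0281). Its change was 0.90 without H9 shLuc (adjusted p = 0.0782) and 0.45 without HES2 shLuc (adjusted p = 0.267). Its relative PFKFB4 was between 12.5 and 19.0 CPM in knockdown and at 14.1 and 15.2 CPM in shLuc libraries, a change of 0.06 (SE 0.26, limma adjusted p = 0.902). The share of PFKFB3 in the pair per kilobase was 84.7% to 90.0% in knockdown and 80.8% to 83.6% in shLuc libraries.

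**Figure D2:**
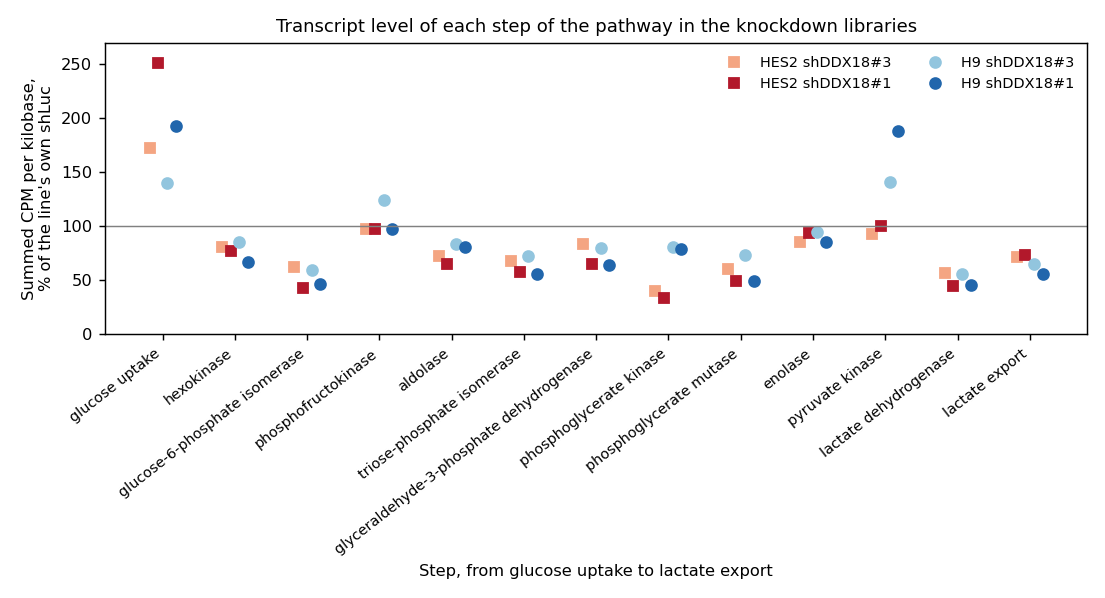
Summed level per kilobase of exon of the enzymes or transporters of each step, as a percentage of the shLuc library of the same line, from glucose uptake (left) to lactate export (right). Points are the 4 knockdown libraries (squares HES2, circles H9) and the line marks 100%; glucose uptake lies at 140% to 251%, lactate dehydrogenase at 44.1% to 56.5%.

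Summed by step and per kilobase, transcripts stood between 42.8% and 61.7% of the line's own shLuc for glucose phosphate isomerase, 55.7% and 72.4% for triose phosphate isomerase, and 49.2% and 73.4% for the mutase. Hexokinase (66.7% to 85.4%), aldolase (64.7% to 83.2%) and GAPDH (63.8% to 83.3%) were lower than shLuc in all 4 libraries by less. Phosphofructokinase stood at 97.0% to 124%, enolase at 84.9% to 94.5% and pyruvate kinase at 92.8% to 188%. The plot by step shows uptake above shLuc in all 4 libraries, and lactate dehydrogenase and lactate export (55.3% to 73.6%) below it. These sums describe the libraries and carry no test.

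EGLN1 and EGLN3 are the oxygen sensors that mark HIF for destruction, and both are HIF targets themselves. EGLN1 had 28.4 CPM in HES2 shDDX18#3, 31.2 in HES2 shDDX18#1, 20.4 in H9 shDDX18#3 and 31.0 in H9 shDDX18#1, against 13.4 in HES2 shLuc and 17.2 in H9 shLuc. All 4 knockdown libraries were above both shLuc libraries, yet EGLN1 missed the threshold at 0.81 (SE 0.24, limma adjusted p = 0.0557), with 1.09 without H9 shLuc (adjusted p = 0.146) and 0.53 without HES2 shLuc (adjusted p = 0.385). EGLN3 had 19.8 CPM in HES2 shDDX18#3, 29.9 in HES2 shDDX18#1, 36.3 in H9 shDDX18#3 and 84.5 in H9 shDDX18#1, against 13.2 in HES2 shLuc and 22.4 in H9 shLuc. It was higher in each knockdown library than in its own shLuc, and highest in H9 shDDX18#1, but HES2 shDDX18#3 did not clear H9 shLuc. EGLN3 missed too, at 1.05 (SE 0.34, limma adjusted p = 0.0688), with 0.84 without H9 shLuc (adjusted p = 0.413) and 1.27 without HES2 shLuc (adjusted p = 0.207). With shDDX18#1 alone EGLN1 rose by 0.99 on the log2 scale (SE 0.24, limma adjusted p = 0.0186) and EGLN3 rose by 1.50 on the log2 scale (SE 0.23, limma adjusted p = 0.00252).

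P4HA1 and P4HA2 hydroxylate proline in collagen. P4HA2 had 24.8 CPM in HES2 shDDX18#3, 49.9 in HES2 shDDX18#1, 38.6 in H9 shDDX18#3 and 112 in H9 shDDX18#1, against 17.0 in HES2 shLuc and 11.6 in H9 shLuc. The knockdown libraries were all above the shLuc libraries, and H9 shDDX18#1 stood apart. P4HA2 rose by 1.71 on the log2 scale (SE 0.48, limma adjusted p = 0.0481), with 1.01 without H9 shLuc (adjusted p = 0.435) and 2.40 without HES2 shLuc (adjusted p = 0.117). The call was close to the threshold. It held in 9 of 18 alternatives, and with all 6 libraries it was lost under a pseudocount of 4, quantile normalization, a robust prior, edgeR, no intensity trend and no block, with adjusted p up to 0.106. P4HA1, the most abundant of these 4 genes per kilobase, had 65.2 CPM in HES2 shDDX18#3, 69.2 in HES2 shDDX18#1, 58.0 in H9 shDDX18#3 and 109 in H9 shDDX18#1, against 61.3 in HES2 shLuc and 48.2 in H9 shLuc. H9 shDDX18#1 was again the highest, and the pooled change of 0.42 (SE 0.26, limma adjusted p = 0.288) did not pass. It was 0.13 without H9 shLuc (adjusted p = 0.88) and 0.71 without HES2 shLuc (adjusted p = 0.3). H9 shDDX18#1 was also the library with the highest sum of fibroblast and feeder markers, 104944 CPM, and whether these share in the collagen hydroxylase values was not tested. The share of P4HA2 in the pair per kilobase was 12.2% to 27.2% in knockdown and 8.07% to 9.17% in shLuc libraries.

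NDRG1, a stress-responsive gene of differentiating cells, had the largest fold change and the smallest p of the 35 genes. It had 48.2 CPM in HES2 shDDX18#3, 46.3 in HES2 shDDX18#1, 39.5 in H9 shDDX18#3 and 56.8 in H9 shDDX18#1, against 4.92 in HES2 shLuc and 8.86 in H9 shLuc. The shLuc values rest on few reads, 22 in HES2 and 32 in H9, and all knockdown libraries were well above them. NDRG1 rose by 2.66 on the log2 scale (SE 0.24, limma adjusted p = 0.00188).

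ADM encodes adrenomedullin, a vasodilator peptide, and was the highest of the other HIF targets per kilobase. It had 121 CPM in HES2 shDDX18#3, 230.1 in HES2 shDDX18#1, 203 in H9 shDDX18#3 and 304 in H9 shDDX18#1, against 56.3 in HES2 shLuc and 104 in H9 shLuc. The groups did not overlap, and shDDX18#1 gave the higher value in each line. ADM rose by 1.40 on the log2 scale (SE 0.27, limma adjusted p = 0.0157).

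VEGFA, the main growth factor of blood vessels, had 141 CPM in HES2 shDDX18#3, 229.8 in HES2 shDDX18#1, 105 in H9 shDDX18#3 and 247 in H9 shDDX18#1, against 90.8 in HES2 shLuc and 46.5 in H9 shLuc. The knockdown libraries were all above the shLuc libraries. VEGFA rose by 1.38 on the log2 scale (SE 0.35, limma adjusted p = 0.037), with 0.98 without H9 shLuc (adjusted p = 0.341) and 1.77 without HES2 shLuc (adjusted p = 0.13).

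The remaining HIF targets did not pass. BNIP3, a mitophagy receptor, had 71.8 CPM in HES2 shDDX18#3, 126 in HES2 shDDX18#1, 51.5 in H9 shDDX18#3 and 90.2 in H9 shDDX18#1, against 86.3 in HES2 shLuc and 51.2 in H9 shLuc. Knockdown and shLuc values overlapped, with a pooled change of 0.27 (SE 0.28, limma adjusted p = 0.532). It was 0.14 without H9 shLuc (adjusted p = 0.891) and 0.41 without HES2 shLuc (adjusted p = 0.607). BNIP3 rose by 0.67 on the log2 scale (SE 0.15, limma adjusted p = 0.0135) with shDDX18#1. KDM3A, a histone demethylase, was at 0.52 (SE 0.22, limma adjusted p = 0.136). Its change was 0.94 without H9 shLuc (adjusted p = 0.101) and 0.10 without HES2 shLuc (adjusted p = 0.84). ANKRD37 was counted at 2.92 to 7.72 CPM in knockdown and 3.60 to 5.59 CPM in shLuc libraries and shares 35.2% of its exon bases with UFSP2, so its change of 0.17 (SE 0.35, limma adjusted p = 0.769) is uncertain.

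**Figure D3:**
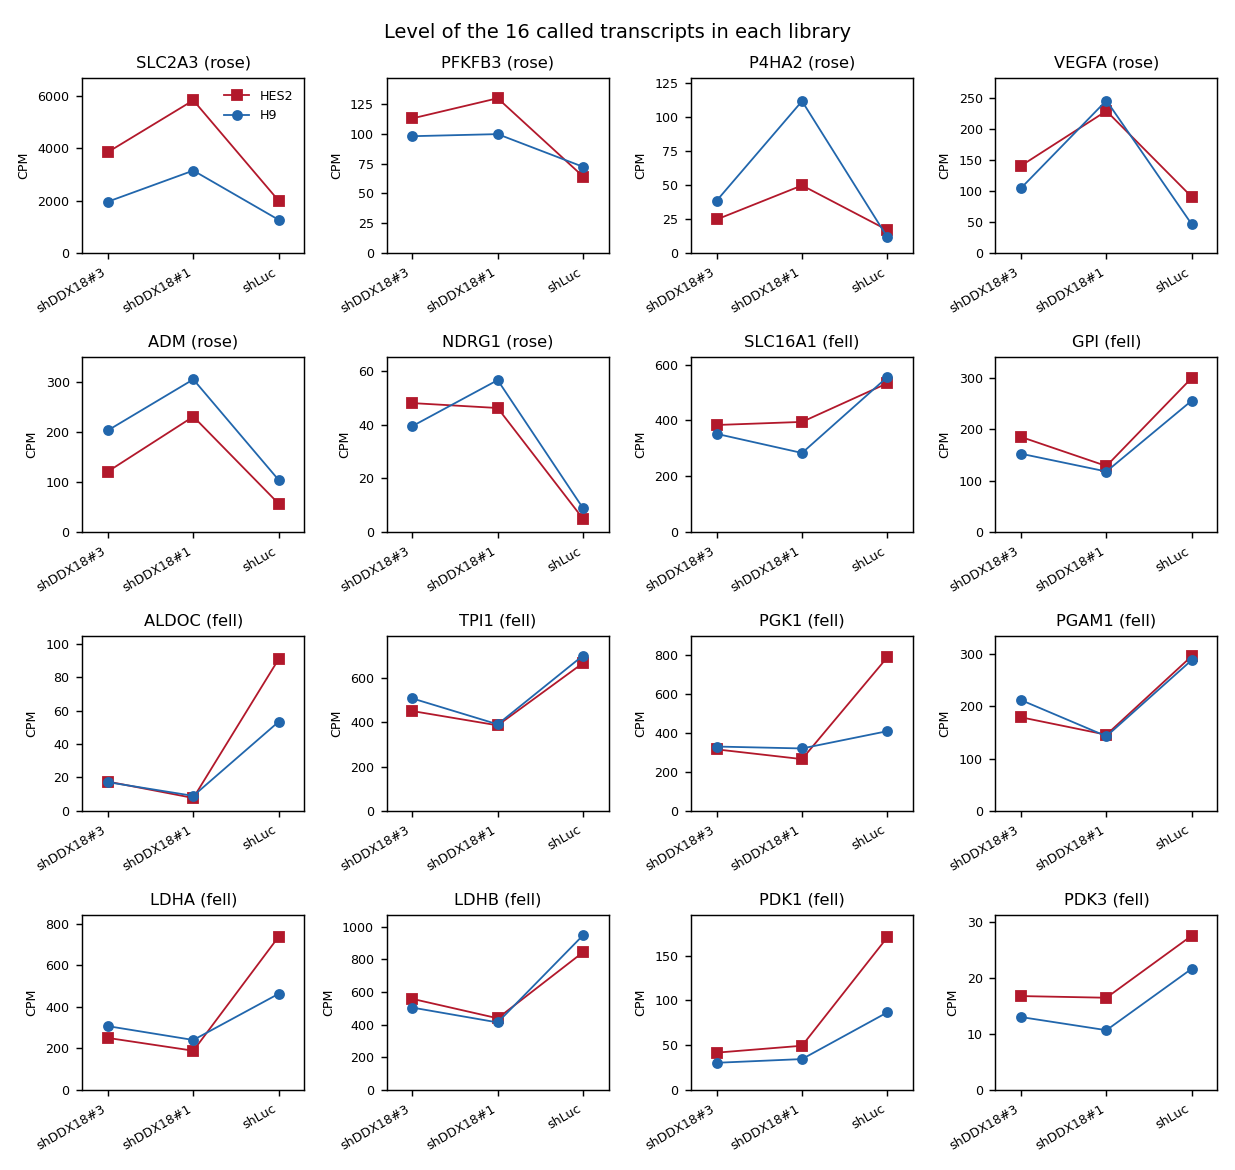
Level in CPM of the 16 genes called in the pooled comparison, 1 panel per gene, with the arms shDDX18#3, shDDX18#1 and shLuc from left to right. Each point is 1 library, squares are HES2 and circles H9, and lines join the libraries of a line; for the 10 genes that fell both shLuc points lie above all knockdown points, and SLC2A3 is the riser whose groups overlap.

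The hairpins were set against shLuc apart, with the same shLuc libraries in both comparisons. With shDDX18#1, 9 genes rose and 13 fell, where 14.4% of all genes tested rose and 13.4% fell. With shDDX18#3, 4 rose and 7 fell, where 6.96% and 3.69% of all genes did. The shDDX18#3 calls rest on few libraries. In that comparison 0 genes passed without HES2 shDDX18#3 or without the block, and only NDRG1 and PDK1 passed without H9 shDDX18#3 or without the intensity trend. Of all genes tested 0.132% rose and 0% fell without HES2 shDDX18#3, and 0.682% rose and 0.0286% fell without H9 shDDX18#3. With shDDX18#1, 7 genes rose and 8 fell in each fit without HES2 shDDX18#3 or without H9 shDDX18#3. Of all genes tested 9.15% rose and 7.17% fell in the first of these fits, and 9.45% and 7.43% in the second. Both fits keep all libraries of shDDX18#1 and shLuc, unlike the shDDX18#3 fits that lost 1 of their own. PDK1 changed by -1.75 with shDDX18#3 and -1.54 with shDDX18#1. ALDOC changed by -1.95 and -2.92, NDRG1 by 2.55 and 2.78, and VEGFA by 0.89 and 1.86 in the same order. All 8 of these values passed, with a highest adjusted p = 0.0402 for VEGFA with shDDX18#3. P4HA2 passed with shDDX18#1 at 2.33 (SE 0.34, limma adjusted p = 0.00201) and not with shDDX18#3 at 1.08 (SE 0.34, limma adjusted p = 0.0824).

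Set against each other, shDDX18#3 and shDDX18#1 differed in 0 of the 35 genes and in 0% of all genes in limma, where the smallest adjusted p among the 35 was 0.121. At an unadjusted p under 0.05 there were 11 of the 35, where 2536 of 17768 genes, 14.3%, were. The edgeR test also called 0, and DESeq2 called 2, SLC2A3 and VEGFA, lower with shDDX18#3, where it called 0.439% of all genes lower. Leaving out either shLuc library, limma called ALDOC higher and 6 genes lower with shDDX18#3, SLC2A3, BNIP3, VEGFA, ADM, EGLN3 and P4HA2. Of all genes 2.27% were higher and 2.42% lower in limma without HES2 shLuc, and 2.28% and 2.38% without H9 shLuc. With all libraries BNIP3 had the smallest p, -0.80 (SE 0.15, limma adjusted p = 0.121) for shDDX18#3 minus shDDX18#1, followed by ADM with -0.76 (SE 0.15, limma adjusted p = 0.127) and VEGFA with -0.96 (SE 0.22, limma adjusted p = 0.145). In HES2 the larger change was with shDDX18#1 for 5 of the 6 genes that rose and 8 of the 10 that fell. In H9 it was so for 6 of 6 and 9 of 10. These genes were called on the same libraries. Over all genes tested the median size of the change against shLuc was also larger with shDDX18#1, 0.48 against 0.348 with shDDX18#3. DDX18 was also the lower with shDDX18#1 in each line, at 24.5% of shLuc in HES2 and 12.6% in H9, against 37.6% and 31.0% with shDDX18#3.

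**Figure D4:**
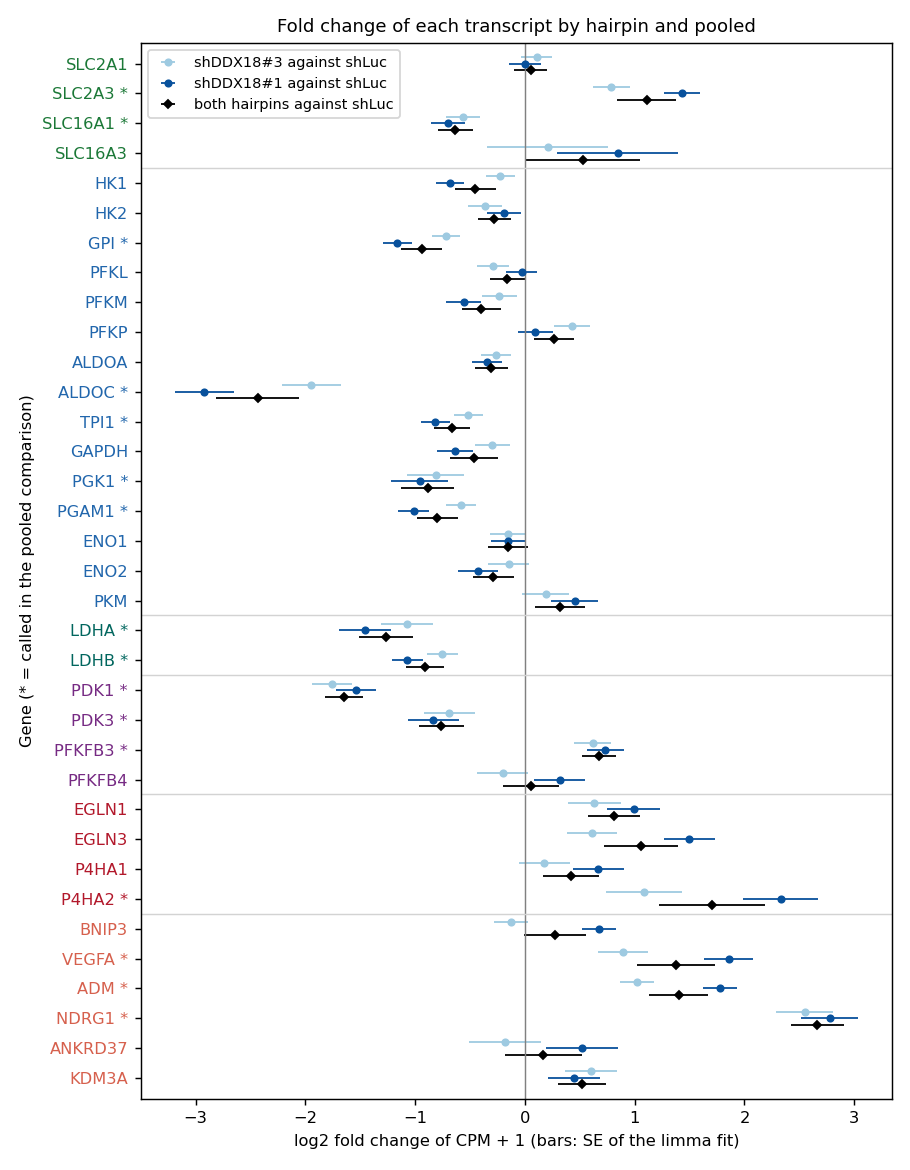
Fold change (log2 of CPM + 1) of each of the 35 transcripts for shDDX18#3 against shLuc (light circles), shDDX18#1 against shLuc (dark circles) and both hairpins against shLuc (diamonds). Bars are the standard error of the limma fit over the 6 libraries, and * marks genes called in the pooled comparison; NDRG1 lies at 2.55, 2.78 and 2.66.

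The knockdown effect was compared between HES2 and H9 by an interaction term. It differed in 0 of the 35 genes and in 0% of all genes, with a smallest adjusted p = 0.9998, and the edgeR and DESeq2 tests called 0 too. At an unadjusted p under 0.05 there were 4 of the 35 genes, where 788 of 17768 genes, 4.43%, were. For HES2 minus H9 these were SLC16A3 at -2.47 (SE 0.63), PGK1 at -1.11 (SE 0.31), LDHA at -1.0 (SE 0.38) and KDM3A at 0.85 (SE 0.34), each with a limma adjusted p = 0.9998. PGK1 was at 40.0% and 33.7% of its own shLuc in HES2 with shDDX18#3 and shDDX18#1, against 80.7% and 78.3% in H9 with the same hairpins. The test has 2 residual degrees of freedom among the libraries, and a miss does not show that the lines responded alike.

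Between the lines, with the arm as a block, 3 genes were higher in HES2 than in H9 and 3 lower, where 1.44% of all genes were higher and 3.98% lower. SLC2A3 was higher by 0.84 (SE 0.13, limma adjusted p = 0.0106), PDK1 by 0.64 (SE 0.15, limma adjusted p = 0.045) and BNIP3 by 0.56 (SE 0.13, limma adjusted p = 0.0393). HK1 was lower at -0.83 (SE 0.11, limma adjusted p = 0.00392), ADM at -0.67 (SE 0.13, limma adjusted p = 0.0209) and EGLN3 at -1.01 (SE 0.19, limma adjusted p = 0.0202). HK1 was lower in HES2 than in H9 in each of the 3 arms, and SLC2A3 higher in each. Without HES2 shDDX18#3 or H9 shDDX18#3 the counts were 0 higher and 0 lower, and without HES2 shDDX18#1 or H9 shDDX18#1 they were 0 higher and 2 lower, HK1 and ADM. In these 4 fits 0.0573% to 0.472% of all genes were higher and 0.470% to 2.05% lower. Without HES2 shLuc or H9 shLuc 1 was higher, SLC2A3, and 6 were lower, HK1, ADM, EGLN3, ENO2, PKM and P4HA2, where up to 4.45% of all genes were higher and up to 8.03% lower.

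**Figure D5:**
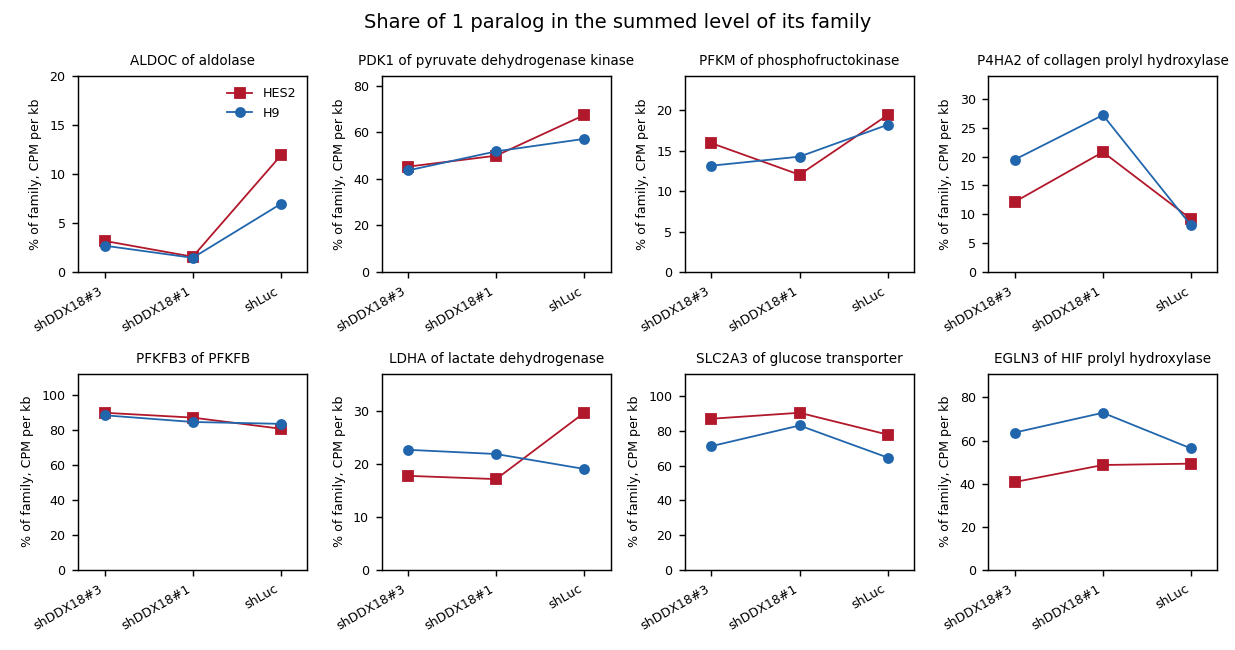
Share of 1 paralog in the summed level of its family (CPM per kilobase of exon, %), for 8 families, with the arms shDDX18#3, shDDX18#1 and shLuc from left to right. Squares are HES2 and circles H9, 1 library each; the ALDOC share is 1.45% to 3.17% in knockdown and 6.94% to 11.9% in shLuc libraries, and the LDHA share overlaps between the arms.

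Genes of the same pathways outside the 35 were counted from lists in the pooled comparison, and their changes are given on the log2 scale. Of all genes tested 9.60% rose and 6.26% fell. Of 28 measured other enzymes of glycolysis, fructose and glycogen use 3 rose and 6 fell, 10.7% and 21.4%, with a median of 0.03. The share that rose is near that of all genes. GBE1, the glycogen branching enzyme, rose by 1.55 (SE 0.21, limma adjusted p = 0.00507), and TIGAR, a phosphatase that lowers the activator of phosphofructokinase, rose by 1.11 (SE 0.19, limma adjusted p = 0.011). UGP2, which makes the sugar donor for glycogen, fell by 0.97 (SE 0.17, limma adjusted p = 0.0107). The glycolytic enzymes of the 35 had a median of -0.40.

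Of 18 other glucose, lactate and pyruvate transporters 2 rose and 3 fell, 11.1% and 16.7%, with a median of 0.20. The share that rose is again near that of all genes. SLC2A14, a near copy of SLC2A3, rose by 1.05 (SE 0.23, limma adjusted p = 0.0238), and it was counted at 1.04% to 1.96% of the pair's reads, so part of its reads may be those of SLC2A3. SLC37A4, the glucose phosphate carrier of the endoplasmic reticulum, fell by 0.72 (SE 0.17, limma adjusted p = 0.0288). SLC2A4, the insulin-responsive transporter, fell by 1.68 (SE 0.31, limma adjusted p = 0.0132).

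Past pyruvate 1 gene was called, and 1 in the pentose phosphate pathway, where 9.60% of all genes tested rose and 6.26% fell. Of 26 genes of pyruvate dehydrogenase and the citric acid cycle 0 rose and 1 fell, 0% and 3.8%, with a median of -0.21. The gene that fell was DLAT, the acetyl-transferring subunit of pyruvate dehydrogenase, with 65.4 CPM in HES2 shDDX18#3, 59.5 in HES2 shDDX18#1, 60.3 in H9 shDDX18#3 and 61.3 in H9 shDDX18#1, against 98.4 in HES2 shLuc and 113 in H9 shLuc. Knockdown and shLuc values did not overlap, and DLAT fell by 0.76 (SE 0.14, limma adjusted p = 0.0142). Of 11 genes of the pentose phosphate pathway 0 rose and 1 fell, 0% and 9.1%, with a median of -0.25. PRPS1, which makes the ribose donor of nucleotides, fell by 0.83 (SE 0.20, limma adjusted p = 0.0289).

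Of 17 regulators of HIF 2 rose and 0 fell, with a median of -0.01. The 2 are 11.8%, near the share of all genes that rose. EPAS1, which encodes the alpha subunit HIF-2α, had 43.4 CPM in HES2 shDDX18#3, 63.1 in HES2 shDDX18#1, 19.5 in H9 shDDX18#3 and 73.1 in H9 shDDX18#1, against 2.68 in HES2 shLuc and 8.86 in H9 shLuc. All 4 knockdown libraries were above both shLuc libraries, and EPAS1 rose by 2.92 (SE 0.56, limma adjusted p = 0.0151). CITED2, a competitor of HIF for its coactivators, rose by 1.74 (SE 0.39, limma adjusted p = 0.0241). HIF1A, the alpha subunit best known for glycolytic targets and regulated mainly as a protein, had 365 CPM in HES2 shDDX18#3, 377 in HES2 shDDX18#1, 366 in H9 shDDX18#3 and 352 in H9 shDDX18#1, against 249 in HES2 shLuc and 299 in H9 shLuc. It was higher in all knockdown libraries and missed the threshold at 0.42 (SE 0.14, limma adjusted p = 0.078).

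Of 43 measured other HIF targets 14 rose and 5 fell, 32.6% and 11.6%, with a median of 0.57 beside -0.02 over all genes. The 14 include genes that are also on the fibroblast and feeder list or on the endoderm list, so these lists are not separate. BHLHE40, a transcriptional repressor, had 60.4 CPM in HES2 shDDX18#3, 69.8 in HES2 shDDX18#1, 137 in H9 shDDX18#3 and 197 in H9 shDDX18#1, against 8.27 in HES2 shLuc and 27.4 in H9 shLuc. Its knockdown libraries were all above the shLuc libraries, and BHLHE40 rose by 2.69 (SE 0.19, limma adjusted p = 0.000998). IGFBP3, a binding protein of insulin-like growth factors, rose by 4.07 (SE 0.45, limma adjusted p = 0.00284), and the collagen crosslinker LOXL2 rose by 1.85 (SE 0.29, limma adjusted p = 0.00758). Among those that fell were MIF, a cytokine, which fell by 0.87 (SE 0.13, limma adjusted p = 0.00766), and the mitochondrial protein FAM162A, which fell by 1.31 (SE 0.22, limma adjusted p = 0.0106). AK4, a mitochondrial adenylate kinase, fell by 0.87 (SE 0.21, limma adjusted p = 0.0316), and HILPDA, a lipid droplet protein, fell by 1.0 (SE 0.25, limma adjusted p = 0.0337). Fibroblasts also express IGFBP3 and LOXL2, and the part of feeder RNA in their rise was not tested.

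Of 29 genes of the MYC network and of energy stress 3 rose and 3 fell, with a median of -0.12. That is 10.3% each way, near the share of all genes that rose. MYC, a known activator of LDHA and other glycolytic genes, had 58.2 CPM in HES2 shDDX18#3, 37.6 in HES2 shDDX18#1, 39.5 in H9 shDDX18#3 and 33.9 in H9 shDDX18#1, against 92.3 in HES2 shLuc and 88.6 in H9 shLuc. The groups did not overlap, and MYC fell by 1.11 (SE 0.20, limma adjusted p = 0.0137). MYCN fell by 1.74 (SE 0.30, limma adjusted p = 0.0115), and LIN28B, an RNA-binding protein of stem cells, fell by 1.18 (SE 0.25, limma adjusted p = 0.0196). The MYC antagonist MXD1 rose by 1.72 (SE 0.27, limma adjusted p = 0.00751), and its relative MXD4 rose by 0.89 (SE 0.24, limma adjusted p = 0.0406). PRKAB2, a subunit of the energy sensor AMPK, rose by 0.94 (SE 0.16, limma adjusted p = 0.0107).

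Of the 35 genes, 8 have a false discovery rate under 0.05 with a positive log2 fold change in the authors' deposited table, and 10 with a negative one. The share of all genes at that rate was not counted, so these counts have no background here. They hold all 16 called here, and EGLN1 and EGLN3 besides, at false discovery rates of 0.0244 and 0.00856 in the authors' deposited table. The sign of the fold change was the same for all 35.

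Some levels are less certain because of how reads were assigned. TPI1, LDHA, PGAM1 and BNIP3 have processed copies in the genome, whose counts were 1.74% to 3.07%, 0.676% to 1.97%, 0.763% to 2.24% and 2.01% to 5.13% of the gene and its copies. PDK1 shares 2.99% of its exon bases with AC078883.1, and SLC16A3 shares 5.36% with CSNK1D, a gene at 165 to 201 CPM in knockdown and 175 to 181 CPM in shLuc libraries. Without strand the reads of such overlaps cannot be divided.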

How the data were processed

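RNA sequencing libraries of 6 samples were analysed from 1 table of 17929 genes. The tools named in the submitters' processing notes are edgeR 3.26.8, HTSeq 0.11.2, SAMtools 1.9 and Bowtie2 2.3.4.3, with the build hg19. What each tool did is not given in the sources used here. The deposited signal is a TMM-scaled count per 1e+06 reads (CPM), per the file headers. Checked on the values, 100% were whole reads within a tolerance of 0.001 read, so the reads behind each value were recovered. The authors' deposited table also gives a log2 fold change for knockdown against shLuc with its p-value and its false discovery rate (FDR), whose design is not stated. Its log2 mean abundance and its likelihood ratio score, both deposited by the authors, were not used here.

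The 35 genes, the lists and the tests were chosen with earlier results of these data known. Signal was taken to log2(value + 1) for the 17768 genes that reached 1 CPM in 2 or more libraries, which left out 161. The test was limma 3.58.1 (limma-trend) in R 4.3.3, with Benjamini-Hochberg adjustment over all genes tested and a threshold of 0.05. The counts were recovered rather than deposited, so the limma test came first and edgeR 4.0.16 (quasi-likelihood) and DESeq2 1.42.0 were run on the recovered reads beside it. The block on cell line comes from the labels: replicate 1 is H9 and replicate 2 is HES2. The difference of HES2 minus H9 correlated across genes between arms with Pearson's r of 0.654 (shDDX18#3 and shDDX18#1), 0.454 (shDDX18#3 and shLuc) and 0.363 (shDDX18#1 and shLuc). The 6 comparisons were each refitted under 18 alternatives. The script was tested on simulated data. Levels are compared between genes only per kilobase of exon, with lengths from GENCODE on GRCh38 matched by gene ID, which count all annotated exons. Promoter windows are from RefSeq on GRCh38.p14. No position on hg19 is given. Values in all libraries are printed for genes called in any comparison and for the most abundant gene of each role. Of the other lists up to 4 called genes with the smallest p are named, except some that are not reported here, and HIF1A, MIF, FAM162A, AK4, HILPDA, LIN28B and MXD4 were added after their values were seen.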

Additional observations from a re-analysis of the deposited data

Results flagged for a closer look

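Within-line log2(CPM + 1) changes of the 4 knockdown libraries were screened for a library far from the other 3, with a gap above Dixon's critical value for 4 samples. Chance flags about 1 in 20 such sets, and 3 of 35 genes were flagged. The 4 libraries hold 2 hairpins and 2 lines, so they are not replicates of 1 condition. HK2 was at -0.0116 in HES2 shDDX18#1, against -0.38 to -0.35 in the other 3 libraries. PDK3 was at -0.96 in H9 shDDX18#1, against -0.71 to -0.69 in the other 3. P4HA1 was at 1.16 in H9 shDDX18#1, against 0.09 to 0.26 in the other 3. H9 shDDX18#1 also had the most DDX18 loss and the highest share of reads from fibroblast and feeder markers, 9.63%, and their part in these values was not tested.

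The knockdown effect ran in opposite directions in the lines for 2 genes. SLC16A3 was below its own shLuc in both HES2 knockdown libraries and above it in both H9 knockdown libraries, a difference of -2.47 for HES2 minus H9 in the interaction fit (limma adjusted p = 0.9998). PKM was higher in H9 and lower or level in HES2, at -0.11 with shDDX18#3 and -0.0007 with shDDX18#1. Its difference of -0.75 in the interaction fit did not pass.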

How the results depend on the processing

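All 16 genes called in the pooled comparison kept their direction in 18 of 18 alternatives. Pseudocounts, filters, other scalings, a robust prior and edgeR left every count of calls within 1.5 times the values reported. In the pooled comparison P4HA2 was lost under a pseudocount of 4, quantile normalization, a robust prior and edgeR, and PGK1 and SLC16A1 under quantile normalization. DESeq2 lost PDK3 and added EGLN3, and a filter of 5 CPM added EGLN1.

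Without the intensity trend 1 gene rose and 2 fell in the pooled comparison, and 8 fell with shDDX18#1. In the same setting 1 rose and 1 fell with shDDX18#3, and 0 were higher and 0 lower in HES2 than in H9. Fewer of all 17768 genes passed too. In the pooled comparison 886 rose and 342 fell, against 1706 and 1113 with the trend. With shDDX18#1 these were 1616 and 1194 against 2559 and 2387, and with shDDX18#3 they were 196 and 31 against 1236 and 655. Between the lines 40 were higher and 144 lower, against 255 and 708. With no replicate block 1 rose and 6 fell in the pooled comparison, and 4 rose and 7 fell with shDDX18#1. With shDDX18#3, 0 rose and 0 fell. Of all 17768 genes, 790 rose and 409 fell in the pooled comparison without the block. With shDDX18#1 these were 1123 and 1003, and with shDDX18#3 they were 16 and 2. With DESeq2, 2 genes were lower with shDDX18#3 than with shDDX18#1, where 0.439% of all genes were. It called 1 gene higher in HES2 than in H9, where 0.799% of all genes were.

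Leaving out each library in turn gave 1 to 8 rises and 0 to 10 falls in the pooled comparison, 7 to 10 rises and 8 to 13 falls with shDDX18#1, and 0 to 7 rises and 0 to 9 falls with shDDX18#3. Between hairpins 0 to 1 genes were higher and 0 to 6 lower with shDDX18#3. Between lines 0 to 1 were higher and 0 to 6 lower in HES2. The sign turned for 5 genes. PFKFB4 was at -0.03 with quantile normalization and between -0.06 and 0.18 with a library left out. SLC2A1 was between -0.01 and 0.12 (the first without H9 shDDX18#3), ANKRD37 between -0.02 and 0.35 (without H9 shDDX18#1), PKM between -0.05 and 0.70 and SLC16A3 between -0.71 and 1.76 (without H9 shLuc). None of these 5 had passed the test. The cause was not tested. The interaction could not be fitted without a shLuc library or without the block. Depth limits the lowest genes, ANKRD37 and NDRG1 in shLuc libraries and SLC16A3 in H9 shLuc.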
